A study of Mus musculus with 6 samples.

Results

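The CC chemokine ligand genes Ccl2, Ccl3, Ccl4, Ccl5, Ccl6, Ccl7, Ccl9, Ccl20 and Ccl25 were examined in primary murine hepatocytes overexpressing Aloxe3. These 9 genes were taken by name from the 41388 genes in the RNA-seq table, and all 9 were tested, being among the 12693 genes whose mean level reached 0.5 RPKM. RPKM divides the reads of a gene by its length and by the depth of the library, so levels can be compared between genes. The cells were hepatocytes from C57BL/6J mice, isolated by collagenase digestion and held in growth medium overnight. The β-gal group (replicates 1, 2 and 3) received adenovirus encoding β galactosidase, the control protein, and the Aloxe3 group (replicates 7, 8 and 9) received adenovirus encoding Aloxe3, the gene of the lipoxygenase eLOX3. Both groups received about 1000000 viral particles for each 1000000 cells, and RNA was collected 24 h later, so every library carries an adenovirus and there is no untreated one. All 6 libraries came from a single sequencing run. The labels do not say whether the replicates were separate cultures or animals, so the p-values below measure only the spread between these libraries, which may be technical.

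Chemokines are small secreted proteins that guide leukocytes through G protein–coupled receptors, and those of the CC family carry a pair of adjacent cysteines near the start of the mature protein. In the liver they are made by hepatocytes, resident macrophages, endothelial cells and stellate cells in response to TNFα, IL-1 and NF-κB signaling, and they draw monocytes, T cells and other leukocytes into the tissue. The comparison of Aloxe3 with β-gal asks how the overexpressed lipoxygenase changes the hepatocyte transcriptome, in which the study examined chemokine signaling as one of several inflammatory pathways.

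The cysteine pair that names the family is shown for 8 of the 9 members, because it is the feature these genes have in common. The windows below were read from 1 protein-coding transcript of each gene in GENCODE M21 (GRCm38), 5′ to 3′ on the coding strand, with the adjacent cysteine codons in capitals. Each of these coding sequences holds exactly 1 such pair.
Ccl2: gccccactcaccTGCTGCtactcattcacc
Ccl7: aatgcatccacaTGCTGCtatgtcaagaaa
Ccl4: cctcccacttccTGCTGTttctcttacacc
Ccl5: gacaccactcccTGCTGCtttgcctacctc
Ccl6: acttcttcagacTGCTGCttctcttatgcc
Ccl9: gactcttcagatTGCTGCctgtcctataac
Ccl20: agcaactacgacTGTTGCctctcgtacata
Ccl25: gcctttgaagacTGCTGCctgggttaccag

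Counted from the start codon, the pair lies at codons 34 and 35 in Ccl2 and Ccl4, at 33 and 34 in Ccl5 and Ccl7, at 32 and 33 in Ccl20 and at 30 and 31 in Ccl25. In Ccl6 and Ccl9 it lies further in, at codons 50 and 51 and at codons 57 and 58. The codons are in exon 2 of 3 in Ccl2, Ccl4, Ccl5, Ccl7 and Ccl20, in exon 3 of 4 in Ccl6 and Ccl9, and in exon 3 of 6 in Ccl25. The coding sequences of Ccl2 and Ccl7 shared 72.1% of 287 aligned bases, those of Ccl3 and Ccl4 71.1% of 270, and those of Ccl6 and Ccl9 70.7% of 341. Members on different chromosomes could be as alike, as Ccl4 and Ccl20 were, at 71.8% of 248 aligned bases. Reads were single and 50 bases long, and the closest pair of 50-base stretches was found between Ccl6 and Ccl9, which differed at 4 bases, whereas the stretches of the other members differed from every other CC ligand gene at 8 or more. The assignment of reads between Ccl6 and Ccl9 was not tested, so their split is given as uncertain.

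Of the 9 genes, 7 lie on chromosome 11 of GRCm38, in a pair of groups. Ccl2 (ENSMUSG00000035385, 82035571 to 82037453) and Ccl7 (ENSMUSG00000035373, 82045712 to 82047525) are both on the forward strand and 8.3 kb apart. They are followed by Ccl11, Ccl12, Ccl8 and Ccl1, each with a mean of 0.11 RPKM or less over the 6 libraries. After a gap of 1220.1 kb come Ccl5 (ENSMUSG00000035042, 83525778 to 83530518), Ccl9 (ENSMUSG00000019122, 83572919 to 83578636), Ccl6 (ENSMUSG00000018927, 83587882 to 83593087) and Ccl3 (ENSMUSG00000000982, 83647844 to 83649355) on the reverse strand. Ccl4 (ENSMUSG00000018930, 83662584 to 83664683) lies 13.2 kb beyond Ccl3 on the forward strand. Ccl20 (ENSMUSG00000026166) is on chromosome 1 from 83116766 to 83119167, and Ccl25 (ENSMUSG00000023235) on chromosome 8 from 4325210 to 4360020, both on the forward strand. Members that share a group on the chromosome differed widely in level, as the values below show.

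The depth of the libraries, derived from the whole-number steps of the RPKM values, was 29575553 to 32431318 reads in the β-gal group and 25521908 to 30399198 in the Aloxe3 group. Aloxe3 itself, as reads assigned to the mouse gene, was at 2.04, 2.06 and 1.74 RPKM in the β-gal libraries and at 42.3, 45.8 and 56.3 in the Aloxe3 libraries (log2 fold change 4.05, SE 0.101, limma adjusted p = 4.74e-06). Replicates differed by more than sampling noise. Chi-square divided by its degrees of freedom was 3.47 to 5.46 in 4 of the 6 replicate pairs, and 8.99 and 9.82 in the 2 pairs with Aloxe3 replicate 9. The 11 hepatocyte markers in the table summed to 5321 to 5381 RPKM in the β-gal and 5191 to 5315 in the Aloxe3 libraries, and were led by Alb and Apoa1, at means of 4485 and 235. Alb made up most of the sum. None of these 11 was at 0 in all libraries, but Cps1, Asgr1 and Fabp1 were the lowest, at means of 1.24, 1.76 and 4.4 RPKM. Of the 11, 1 passed the test, Ttr, the transport protein transthyretin, which fell from 124 ± 6.46 to 100.5 ± 1.06 RPKM (SD, n = 3 each, log2 fold change -0.30, SE 0.0435, limma adjusted p = 0.0448). Apoa1 and Apoc3 were lower (log2 fold changes -0.10 and -0.13, limma adjusted p = 0.349 and 0.295) and Cps1 and Ahsg higher (0.33 and 0.21, limma adjusted p = 0.161 and 0.18) without overlap of the groups, and these did not pass. The part of these markers in the results below was not tested. Over all tested genes, 45 were higher (0.355%) and 5 lower (0.0394%) in Aloxe3 libraries at a limma adjusted p under 0.05. This total of 50 was 6 to 19 with any 1 library left out and 7 without the filter on low values.

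None of the 9 CC ligand genes passed the test at an adjusted p under 0.05 in limma on log2(RPKM + 1), a scale on which the change of a scarce gene is understated. Of all tested genes, 0.394% did, 0.355% higher and 0.0394% lower. With voom on the derived reads, 0 of the 9 and 174 of all tested genes passed. At an unadjusted limma p under 0.05 there were 4, Ccl3, Ccl5, Ccl9 and Ccl20, all with higher means in the Aloxe3 group, and 12.7% of all tested genes were under the same limit (7.31% higher and 5.42% lower). In the same 4 genes every Aloxe3 library lay above every β-gal library, and none had the reverse. Groups without overlap were found in 19.9% of all tested genes, 11.2% with Aloxe3 higher and 8.71% with it lower. A log2 fold change above 0 was found for 8 of the 9, all but Ccl7, and for 6647 of all 12693 tested genes. The median over the 9 was 0.101 against 0.005 over all tested genes. The 9 genes were not measured independently of each other, since they come from the same 6 libraries. In RNA from a whole culture, fewer cells of a type and less RNA per cell cannot be told apart.

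**Figure D1:**
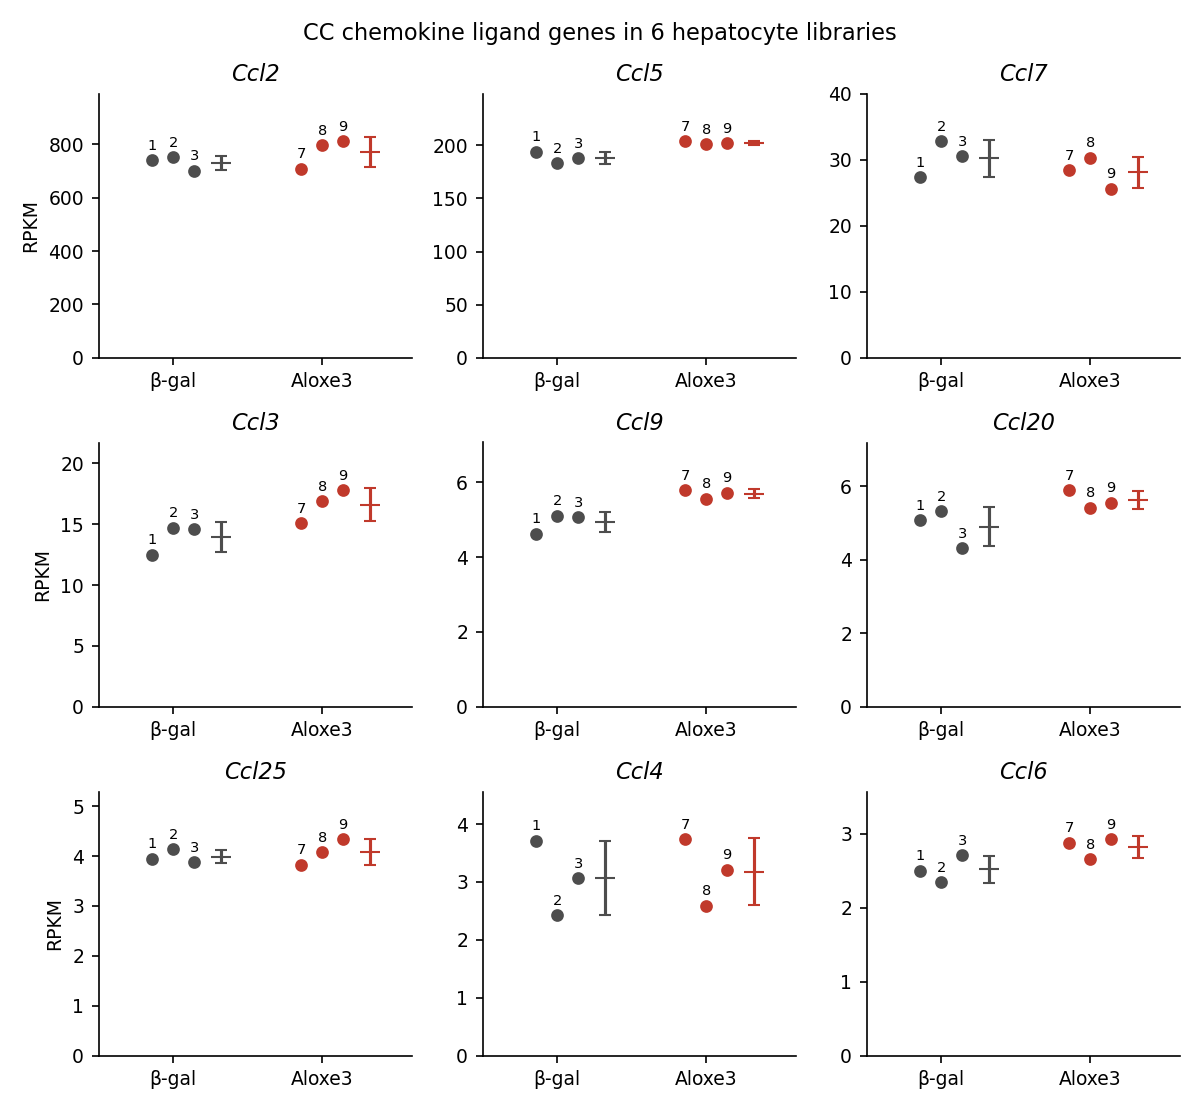
Level of each CC ligand gene (RPKM, linear axes from 0) in the 3 β-gal libraries (grey, replicates 1, 2 and 3) and the 3 Aloxe3 libraries (red, replicates 7, 8 and 9). Each point is a library, and the bars give mean ± SD. The red points lie wholly above the grey ones for Ccl3, Ccl5, Ccl9 and Ccl20, and overlap them for the other 5 genes.

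Ccl2 and Ccl7 encode ligands of CCR2, the receptor by which monocytes are drawn out of the blood. Ccl2, also called monocyte chemoattractant protein 1, was the most abundant member and stood at rank 45 of the 12693 tested genes. It was at 740.4, 751 and 701 RPKM in the β-gal libraries and at 708, 796 and 812 in the Aloxe3 libraries. Aloxe3 replicates 8 and 9 were above all β-gal libraries, but replicate 7 was below β-gal replicates 1 and 2, so the groups overlapped. The means were 731 ± 26.2 and 772 ± 56.1 RPKM (SD, n = 3 each). The log2 fold change was 0.08 (SE 0.0607, 95% interval -0.06 to 0.22, limma adjusted p = 0.63, and p = 0.3 in the exact two-sided permutation test, whose smallest p with 3 against 3 is 0.1). Each of these values rests on 20567 to 27726 reads, and counting alone would give a coefficient of variation of 0.63%. The spread between libraries was 3.58% in the β-gal and 7.26% in the Aloxe3 group, so depth did not limit this comparison. Without Aloxe3 replicate 9 the log2 fold change was 0.04, and without replicate 7 it was 0.14 (limma adjusted p = 0.822 and 0.313).

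Ccl7, or monocyte chemoattractant protein 3, was the only member with a lower mean in the Aloxe3 group. Its levels were 27.3, 32.8 and 30.5 RPKM in the β-gal and 28.4, 30.3 and 25.6 in the Aloxe3 libraries. Replicate 9 was the lowest of all 6 and β-gal replicate 1 the next lowest, so the groups overlapped. The means of 30.2 ± 2.76 and 28.1 ± 2.37 RPKM (SD, n = 3 each) gave a log2 fold change of -0.10 (SE 0.0793, 95% interval -0.28 to 0.08, limma adjusted p = 0.635, exact permutation p = 0.4). It was -0.17 without β-gal replicate 1, -0.15 without Aloxe3 replicate 8, and -0.04 without either β-gal replicate 2 or Aloxe3 replicate 9. Ccl7 was present at 3.15 to 4.36 for every 100 of Ccl2 on the RPKM scale, and this ratio overlapped between the groups as well. The neighbors Ccl2 and Ccl7 thus had opposite signs, each within the spread of its own libraries.

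Ccl3, Ccl4 and Ccl5 encode inflammatory ligands that draw macrophages and T cells, and Ccl3 and Ccl5 bind CCR1. Ccl5, also known as RANTES, was the second most abundant member, at rank 195 of the tested genes. Its levels were 194, 183 and 188 RPKM in the β-gal libraries and 204, 201 and 202 in the Aloxe3 libraries. The 3 Aloxe3 libraries lay close together and all above the highest β-gal library, β-gal replicate 1. From 188 ± 5.78 to 202 ± 1.77 RPKM (SD, n = 3 each) the log2 fold change was 0.10 (SE 0.0362, 95% interval 0.02 to 0.19, limma adjusted p = 0.323, exact permutation p = 0.1, the smallest possible). With 5002 to 6020 reads per library this was the member with the narrowest interval, and leaving out any library kept the log2 fold change between 0.08 and 0.12.

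Ccl3, or macrophage inflammatory protein 1α, had the largest fold change of the 9. It was at 12.5, 14.7 and 14.6 RPKM in the β-gal libraries and at 15.1, 16.9 and 17.8 in the Aloxe3 libraries. The groups did not overlap, but Aloxe3 replicate 7 stood just above β-gal replicates 2 and 3, while β-gal replicate 1 stood well below them. The means were 13.9 ± 1.21 and 16.6 ± 1.37 RPKM (SD, n = 3 each), 1.19-fold apart. The log2 fold change was 0.24 (SE 0.0763, 95% interval 0.06 to 0.41, limma adjusted p = 0.291, exact permutation p = 0.1). It was 0.17 without β-gal replicate 1, 0.19 without Aloxe3 replicate 9 and 0.30 without Aloxe3 replicate 7. On the RPKM scale, Ccl3 came to 1.69, 1.95 and 2.08 for every 100 of Ccl2 in the β-gal libraries and 2.13, 2.12 and 2.19 in the Aloxe3 libraries. This ratio did not overlap between the groups, but the intervals of the log2 fold changes of both genes did (exact permutation p of the ratio = 0.1, the smallest possible).

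Ccl4, or macrophage inflammatory protein 1β, lies next to Ccl3 on the chromosome. Its levels were 3.71, 2.43 and 3.07 RPKM in the β-gal and 3.74, 2.59 and 3.21 in the Aloxe3 libraries. The groups covered almost the same range, with means of 3.07 ± 0.64 and 3.18 ± 0.575 RPKM (SD, n = 3 each). The log2 fold change of 0.04 had the widest interval of the 9 (SE 0.134, 95% interval -0.27 to 0.35, limma adjusted p = 0.925, exact permutation p = 0.7), so a change of the size seen in Ccl3 was not detectable here. Ccl4 had 52 to 79 reads per library, the fewest of the members. Its coefficient of variation was 20.8% in the β-gal and 18.1% in the Aloxe3 group, against 12.9% from counting alone. The sign turned to -0.08 without β-gal replicate 2 and to -0.05 without Aloxe3 replicate 7. Ccl4 amounted to 15.3 to 29.6 for every 100 of Ccl3 on the RPKM scale, with overlapping groups (exact permutation p = 0.6).

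Ccl6 and Ccl9 are a pair of rodent ligands of CCR1, made largely by macrophages and other myeloid cells. Ccl9 was at 4.62, 5.11 and 5.06 RPKM in the β-gal libraries and at 5.79, 5.56 and 5.72 in the Aloxe3 libraries. All 3 Aloxe3 libraries were above all β-gal libraries, and β-gal replicate 1 was the lowest. The means were 4.93 ± 0.271 and 5.69 ± 0.116 RPKM (SD, n = 3 each), and the log2 fold change was 0.17 (SE 0.0479, 95% interval 0.06 to 0.29, limma adjusted p = 0.253, exact permutation p = 0.1). This was the smallest adjusted p among the members, and it was 0.192 with voom, the smallest in any alternative. The log2 fold change lay between 0.14 and 0.20 whichever library was left out, on 450 to 515 reads.

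Ccl6 had a lower level, at 2.5, 2.35 and 2.71 RPKM in the β-gal libraries and 2.88, 2.66 and 2.93 in the Aloxe3 libraries. The groups overlapped only in that Aloxe3 replicate 8 fell below β-gal replicate 3. From 2.52 ± 0.18 to 2.82 ± 0.145 RPKM (SD, n = 3 each) the log2 fold change was 0.12 (SE 0.0583, 95% interval -0.02 to 0.25, limma adjusted p = 0.446, exact permutation p = 0.2). With 132 to 145 reads, counting alone gives a coefficient of variation of 8.44%, more than the 7.15% and 5.15% seen within the groups. Ccl6 stood at 46.0 to 54.2 for every 100 of Ccl9, with overlapping groups. A gene on the opposite strand, E230016K23Rik, overlaps Ccl6 and had 16 to 36 reads per library, and whether the counting used strand is not given in the sources used here.

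Ccl20 and Ccl25 are homing ligands, the former for CCR6 on dendritic cells and on Th17 and B cells, the latter for CCR9 on thymocytes and gut-homing T cells. Ccl20 was at 5.08, 5.32 and 4.31 RPKM in the β-gal libraries and at 5.9, 5.42 and 5.56 in the Aloxe3 libraries. The groups were separate by a small margin, since β-gal replicate 2 lay just under Aloxe3 replicate 8, and β-gal replicate 3 was the low one. The means of 4.9 ± 0.528 and 5.63 ± 0.248 RPKM (SD, n = 3 each) gave a log2 fold change of 0.17 (SE 0.0705, 95% interval 0.01 to 0.34, limma adjusted p = 0.376, exact permutation p = 0.1). Without β-gal replicate 3 it was 0.10 and without β-gal replicate 2 it was 0.22. Ccl20 had 181 to 245 reads, and its spread of 10.8% in the β-gal group was above the 6.75% of counting error while the 4.4% in the Aloxe3 group was below it.

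Ccl25 was at 3.95, 4.14 and 3.88 RPKM in the β-gal libraries and at 3.83, 4.08 and 4.34 in the Aloxe3 libraries. Aloxe3 replicate 7 was the lowest of all 6 and Aloxe3 replicate 9 the highest, with the β-gal libraries between them. The means were 3.99 ± 0.134 and 4.08 ± 0.253 RPKM (SD, n = 3 each). The log2 fold change was 0.03 (SE 0.0523, 95% interval -0.09 to 0.15, limma adjusted p = 0.869, exact permutation p = 0.7). It was -0.01 without Aloxe3 replicate 9. Ccl25 overlaps Elavl1 on the opposite strand, a gene with 2843 to 3592 reads per library. Its own 261 to 358 reads are known only up to a common factor, since the annotated length did not give whole reads, so neither its depth nor its level is as firm as for the other members.

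**Figure D2:**
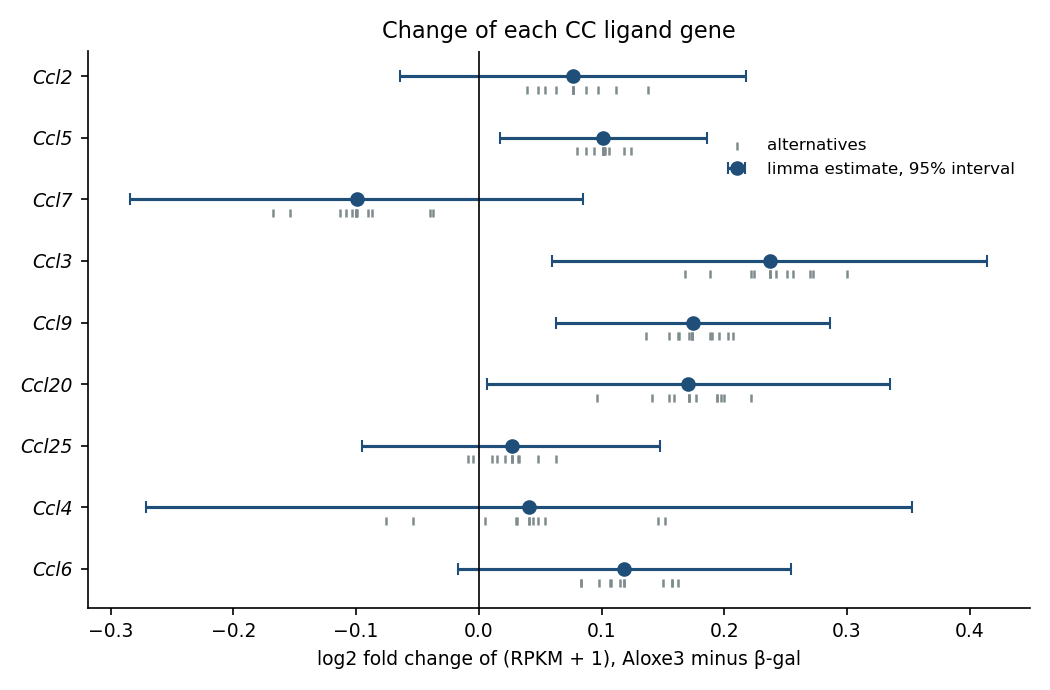
Log2 fold change of RPKM + 1 for each CC ligand gene, Aloxe3 minus β-gal, as the limma estimate with its 95% interval (blue point and bar, n = 3 per group), in order of level from Ccl2 at the top to Ccl6. Grey ticks are the estimates under the alternatives, and they cross 0 for Ccl25 and Ccl4 but not for the other 7 genes.

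In order of level the members ran from Ccl2 through Ccl5, Ccl7 and Ccl3 to Ccl9, Ccl20, Ccl25, Ccl4 and Ccl6. The first 4 were apart from their neighbors in all 6 libraries, with no overlap of the ranges over libraries. Ccl9 and Ccl20 did not differ beyond their spread, Ccl9 being the higher in 3 of 6 libraries. The ranges of Ccl20 and Ccl25 overlapped although Ccl25 was lower in 6 of 6 libraries, and those of Ccl4 and Ccl6 overlapped with Ccl4 the higher in 5 of 6. Ccl2 alone made up 72.4% to 75.3% of the summed RPKM of the 9 genes, Ccl5 18.3% to 20.9%, and the other 7 together 6.0% to 6.73%. The sum was 994, 1001 and 954 RPKM in the β-gal libraries and 978, 1065 and 1079 in the Aloxe3 libraries. It therefore overlapped between the groups, as Ccl2 did. Without Ccl2 the remaining 8 summed to 254, 249.6 and 252 RPKM in the β-gal and 269.8, 268 and 267 in the Aloxe3 libraries. These groups did not overlap (exact permutation p = 0.1, the smallest possible), beside 19.9% of single tested genes without overlap. Ccl5 is the main part of this sum, and its own groups did not overlap.

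Leaving out Aloxe3 replicate 9, the library that differed most from its group, gave log2 fold changes of 0.19 for Ccl3, 0.18 for Ccl20, 0.17 for Ccl9 and 0.10 for Ccl5, with limma adjusted p-values of 0.413, 0.448, 0.338 and 0.357.

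**Figure D3:**
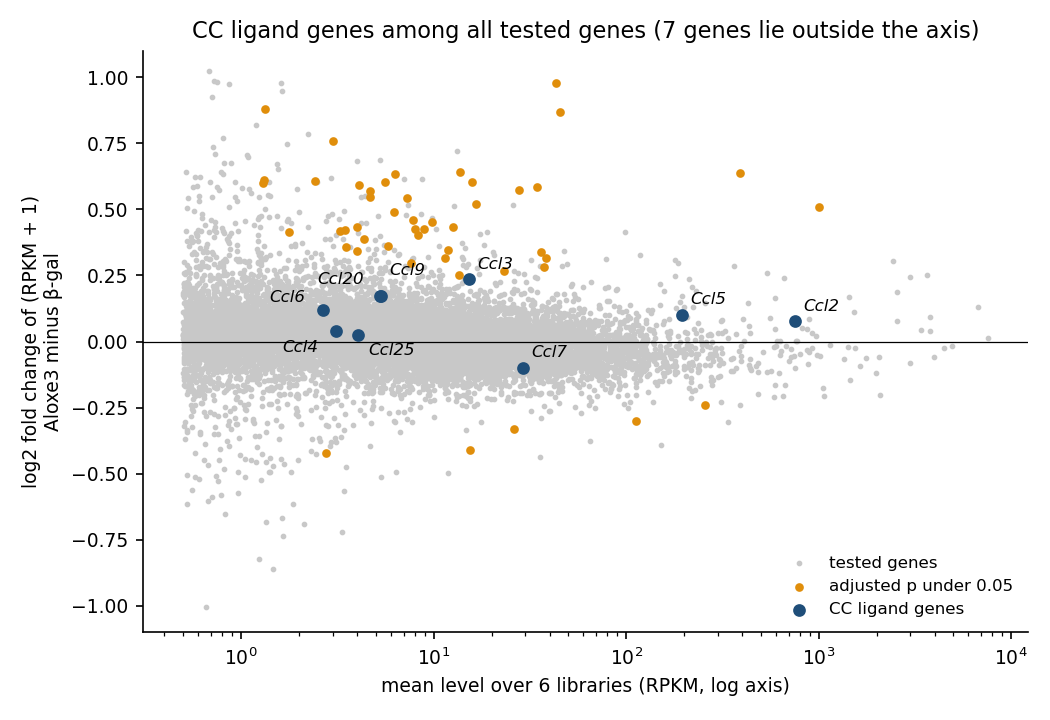
Mean level over the 6 libraries (RPKM, log axis) against the log2 fold change of RPKM + 1 (Aloxe3 minus β-gal) for the tested genes in grey, those at a limma adjusted p under 0.05 in orange and the 9 CC ligand genes in blue, with 7 genes outside the axis. The blue points lie between -0.10 and 0.24, inside the grey cloud of genes at their level.

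Spread between libraries was compared with the error from counting reads. For Ccl2, Ccl7, Ccl3 and Ccl4 the coefficients of variation were above counting error in both groups. For Ccl6 they were below it in both groups. In the Aloxe3 group the values for Ccl5, Ccl9 and Ccl20, at 0.874%, 2.03% and 4.4%, were below their counting errors of 1.35%, 4.6% and 6.75%.

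**Figure D4:**
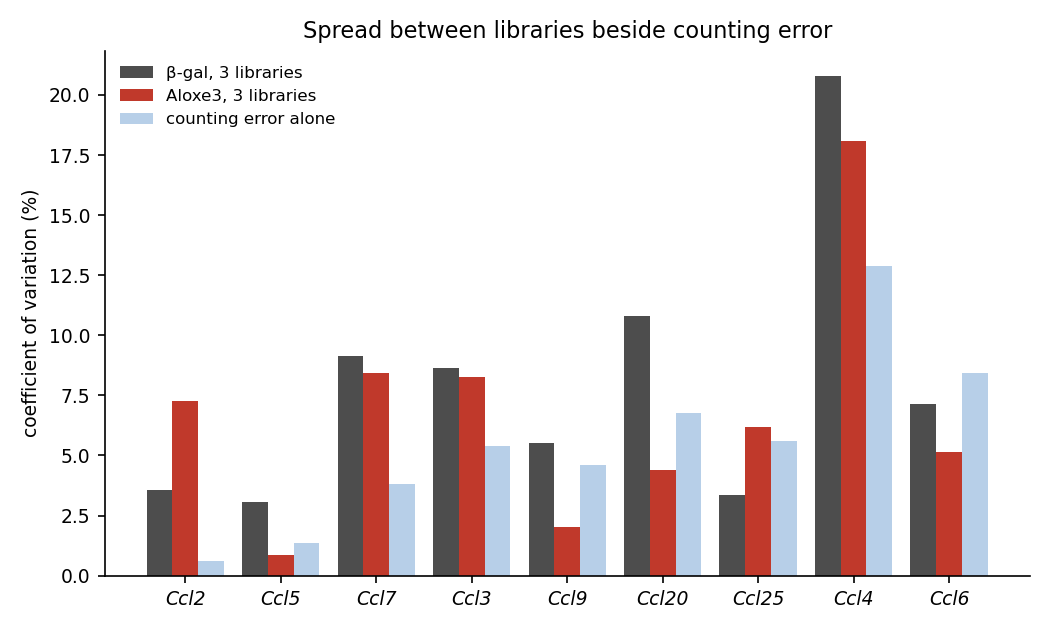
Coefficient of variation (SD divided by mean, in percent) of each CC ligand gene over the 3 β-gal libraries (grey) and the 3 Aloxe3 libraries (red), beside that expected from counting reads alone (light blue). Ccl4 has the highest bars, at 20.8% and 18.1%, and for Ccl2 counting error, at 0.63%, is far below both groups.

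Promoters, the 250 bases before the start of the gene in RefSeq (GRCm38.p6), were available for Ccl3, Ccl6, Ccl9, Ccl20 and Ccl25. Not analysed here were those of Ccl2, Ccl4, Ccl5 and Ccl7. They were searched on both strands for the κB motif bound by NF-κB, the AP-1 motif TGANTCA and the C/EBP motif TTGCNNAA, which occur in 7.3%, 6.7% and 9.6% of 32851 promoter windows of the same length. The 3 promoters shown are those available for the 4 members whose groups did not overlap, 5′ to 3′ on the strand of the gene, with matches in capitals, from chr11:83578637-83578886 (reverse strand) for Ccl9, chr1:83116516-83116765 (forward strand) for Ccl20 and chr11:83649379-83649628 (reverse strand) for Ccl3.
Ccl9: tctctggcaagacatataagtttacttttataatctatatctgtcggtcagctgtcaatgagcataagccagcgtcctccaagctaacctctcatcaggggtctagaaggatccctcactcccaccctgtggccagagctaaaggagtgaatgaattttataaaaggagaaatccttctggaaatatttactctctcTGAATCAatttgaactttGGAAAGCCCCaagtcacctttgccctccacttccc
Ccl20: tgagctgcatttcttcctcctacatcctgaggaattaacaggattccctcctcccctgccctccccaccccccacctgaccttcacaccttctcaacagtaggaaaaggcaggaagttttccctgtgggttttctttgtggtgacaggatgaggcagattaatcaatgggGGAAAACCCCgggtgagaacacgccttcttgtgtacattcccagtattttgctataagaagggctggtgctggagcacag
Ccl3: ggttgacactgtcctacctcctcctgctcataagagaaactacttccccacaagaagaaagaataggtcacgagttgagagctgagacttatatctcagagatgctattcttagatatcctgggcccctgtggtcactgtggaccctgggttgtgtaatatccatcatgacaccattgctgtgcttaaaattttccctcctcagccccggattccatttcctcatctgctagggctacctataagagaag

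The promoter of Ccl9 held a κB match, on the opposite strand, 35 to 26 bases before the start and an AP-1 match 53 to 47 bases before it. The promoter of Ccl20 held a κB match, also on the opposite strand, 80 to 71 bases before the start. No match to these letters was found in the windows of Ccl3, Ccl6 and Ccl25, the last of which has 2 starts. The window of Ccl3 ends upstream of its start in GENCODE M21, 83649355, and the bases between were not searched. A match is a description of the letters, and binding was not measured.

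Of the other mouse CC ligand genes listed, 14 of 15 were in the table and 1 was tested. This was Ccl27a, at a mean of 0.646 RPKM (log2 fold change 0.03, SE 0.0788, limma adjusted p = 0.917). The next, Ccl22, had 6 to 10 reads per library. Of the 14, 5 were at 0 in every library, and 9, these 5 included, had no more than the floor of 3 reads in any library. All 14 together summed to 0.941 to 1.31 RPKM in the β-gal and 0.994 to 1.06 in the Aloxe3 libraries, against 954 to 1079 for the 9 members.

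Receptors were scarce in these RNAs. Of 15 genes for CC and atypical receptors, 3 were tested and 0 passed. Ackr1, an atypical receptor that holds chemokines without signaling, had a mean of 1.32 RPKM (log2 fold change -0.04, SE 0.125, limma adjusted p = 0.928). Ccrl2, an atypical receptor that binds chemerin, was at 1.2, 1.02 and 1.19 RPKM in the β-gal libraries and 1.24, 1.28 and 1.38 in the Aloxe3 libraries. Its groups did not overlap, with a log2 fold change of 0.11 (SE 0.0632, limma adjusted p = 0.527). Chosen after their values were seen, Ccr2, the receptor of Ccl2 and Ccl7, had 0 to 3 reads per library and Ccr6, the receptor of Ccl20, 0 or 1.

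Among 20 genes for inducers of the ligands and their receptors, 17 were tested, 9 had a log2 fold change above 0 and 8 below, the median was 0.007 and 0 passed. Tnfrsf1a, a receptor of TNFα, was at 42.6 ± 1.32 and 44.2 ± 0.895 RPKM (SD, n = 3 each, log2 fold change 0.05, SE 0.0371, limma adjusted p = 0.576). Ifngr1, a receptor of interferon-γ, was at 30.5 ± 0.645 and 32.3 ± 0.743 RPKM (SD, n = 3 each, log2 fold change 0.08, SE 0.0353, limma adjusted p = 0.386). At an unadjusted limma p under 0.05 there were 4 of the 17, beside 12.7% of all tested genes, Ifngr1, Il1a and Il1r1 with higher and Myd88 with lower means in the Aloxe3 group. Il1a, picked out after its values were seen and encoding IL-1α, was at 2.9, 2.98 and 2.98 RPKM in the β-gal libraries and 3.61, 3.63 and 3.53 in the Aloxe3 libraries (log2 fold change 0.21, SE 0.0429, limma adjusted p = 0.126).

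All 26 listed transcription factors and regulators of ligand mRNA were tested, with 16 log2 fold changes above 0, 10 below, a median of 0.016 and 0 past the test. Junb, an AP-1 subunit, was at 160.5 ± 6.71 and 165 ± 6.8 RPKM (SD, n = 3 each, log2 fold change 0.04, SE 0.0468, limma adjusted p = 0.789). Zfp36l1, which binds AU-rich mRNAs and promotes their decay, was at 131 ± 1.23 and 143 ± 24.7 RPKM (SD, n = 3 each, log2 fold change 0.12, SE 0.104, limma adjusted p = 0.67). At an unadjusted limma p under 0.05 there was 1 of the 26, beside 12.7% of all tested genes, Zc3h12a, which encodes a nuclease that cuts inflammatory mRNAs and had a lower mean in the Aloxe3 group (16.8 ± 0.501 against 15.4 ± 0.338 RPKM, SD, n = 3 each, limma adjusted p = 0.313).

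For proteins that trim chemokines or hold them at the cell surface, 17 of 23 genes were tested, with 10 log2 fold changes above 0, 7 below, a median of 0.017 and 0 past the test. Sdc4, a heparan sulfate proteoglycan, was at 85.1 ± 2.8 and 81.5 ± 4.0 RPKM (SD, n = 3 each, log2 fold change -0.06, SE 0.0463, limma adjusted p = 0.603). Mmp14, a membrane-bound metalloproteinase, was at 72.0 ± 0.252 and 72.9 ± 1.6 RPKM (SD, n = 3 each, log2 fold change 0.02, SE 0.0325, limma adjusted p = 0.863). The 1 gene of the 17 at an unadjusted limma p under 0.05, beside 12.7% of all tested genes, was Dpp4, a peptidase that removes the first residues of several chemokines, Ccl5 among them. It was at 1.56, 1.56 and 1.52 RPKM in the β-gal libraries and at 1.93, 2.01 and 1.96 in the Aloxe3 libraries, without overlap (log2 fold change 0.22, SE 0.0498, limma adjusted p = 0.166).

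Of the genes for signaling below the receptors, 21 were tested of 27 in the table, with 7 log2 fold changes above 0, 14 below, a median of -0.03 and 0 past the test. Gnai2, an inhibitory G protein subunit through which chemokine receptors signal, was at 235 ± 7.52 and 227 ± 5.75 RPKM (SD, n = 3 each, log2 fold change -0.05, SE 0.0396, limma adjusted p = 0.644). Gnb1, a G protein β subunit, was at 182 ± 5.07 and 171 ± 5.97 RPKM without overlap (SD, n = 3 each, log2 fold change -0.09, SE 0.0407, limma adjusted p = 0.421). At an unadjusted limma p under 0.05 there were 6 of the 21, beside 12.7% of all tested genes, Arrb1, Arrb2 and Jak2 with higher and Gnai3, Gnb2 and Grk6 with lower means.

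Levels differed widely among the markers of other cells that make these ligands. The 16 Kupffer cell and macrophage markers summed to 239 to 246 RPKM in the β-gal and 219 to 232 in the Aloxe3 libraries, with none at 0 in all libraries. Most of this was Cd68, at 148 ± 1.2 and 133 ± 7.21 RPKM (SD, n = 3 each, limma adjusted p = 0.262), and Cd14, at 75.1 ± 5.69 and 73.4 ± 1.01 (SD, n = 3 each, limma adjusted p = 0.85). Without these 2 genes the sums were 16.1 to 23.2 and 16 to 19 RPKM. Of the 16 markers, 11 reached the mean of 0.5 RPKM. Among those that did not, Clec4f, Timd4 and Vsig4 had 2 to 6, 1 to 5 and 0 to 4 reads per library. The ranges of the full sum did not overlap between the groups, those of the sum without Cd68 and Cd14 did, and the part of these markers in the values of the ligands was not tested.

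The 11 sinusoidal endothelial markers, led by Cdh5 and Eng at means of 15.3 and 12.1 RPKM, summed to 53.3 to 61.3 in the β-gal and 53.5 to 59.7 in the Aloxe3 libraries. The 12 stellate cell and fibroblast markers, led by Col1a1 and Dcn at means of 2.32 and 1.12 RPKM, summed to 5.28 to 5.77 and 5.08 to 5.51, and Lrat was at 0 throughout. The 14 lymphocyte and NK cell markers, led by Ptprc and Cd79a, summed to no more than 0.301 RPKM in any library, with 4 at 0 in all. The 12 neutrophil and dendritic cell markers, led by Zbtb46 and Csf3r, summed to 1.58 to 1.82 RPKM in the β-gal and 1.5 to 1.74 in the Aloxe3 libraries, with 1 at 0 in all. The 8 cholangiocyte markers summed to 1528 to 1609.7 and 1596 to 1734 RPKM, nearly all of it Spp1, at a mean of 1521, followed by Sox9 at 42.3. Spp1 is also made by macrophages and by activated liver cells of several types.

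The genes whose pattern over the 6 libraries was nearest to that of Ccl2 were Tnk2os, Iqcb1 and Pigl, with root mean square differences of 0.011, 0.018 and 0.024 on the centred log2(RPKM + 1) scale. Pigl, for example, was at 5.41, 5.66 and 5.31 RPKM in the β-gal libraries and 5.37, 5.96 and 6.36 in the Aloxe3 libraries. The spread of Ccl2 itself was 0.079 on this scale, and 2320 tested genes were nearer to it than that. Over 6 libraries such likeness is common and is given as a description.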

How the data were processed

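RNA-seq was carried out by the authors on 6 libraries of primary murine hepatocytes, 3 per group, grouped by the sample titles. Single reads were aligned with STAR 2.0.4b to GRCm38.p2, and uniquely aligned reads were counted with featureCounts 1.4.5, per the labels and the study's methods. The authors deposited RPKM values per Ensembl gene. How counts became RPKM and whether counting used strand is not given in the sources used here.

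Gene symbols and positions came from GENCODE M21 (40340 identifiers matched, 1048 did not). Library sizes and reads per gene were derived from the whole-number steps of the RPKM values (tolerance 0.01 of a read), and the listed genes held 99.93% of each library. For 8573 of the 24989 genes above 0, reads came from the smallest length that gave whole reads. Their reads are known only up to a common factor, and of the members only Ccl25 is among them. The shallowest library gives 0.0392 RPKM for 1 read on 1 kb. Values were tested as log2(RPKM + 1) over genes whose mean reached 0.5 RPKM, in R 4.3.3 by lmFit and eBayes (trend) of limma 3.58.1, two-sided, with Benjamini-Hochberg adjustment over all 12693 genes at 0.05. Single values were compared with exact permutation tests (scipy 1.17.1). Counting error covers reads only. The fit was tested on simulated data. Alternatives were a pseudocount of 0.1, no filter, a filter of 5 RPKM, quantile normalization, rescaling to an equal median, leaving out each library, eBayes without trend, and voom on the derived reads.

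The members and the gene lists were chosen with earlier results of these data known. Genes named are the 9 members, Aloxe3, the 2 most abundant genes of each list, genes past the threshold in pathway lists, markers at 0, and the 3 genes nearest in pattern to Ccl2. Other genes were chosen after their values were seen. Values of 1 receptor gene and the coding window of 1 member are not reported here. Scripts ran in Python 3.11.15 (matplotlib 3.10.9, numpy 2.4.6, pandas 2.3.3).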

Additional observations from a re-analysis of the deposited data

How the results depend on the processing

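None of the 9 CC ligand genes passed the threshold under any of the 13 alternatives run, with a smallest adjusted p among the members of 0.192 to 0.496 over these fits. The filter of 5 RPKM kept 6 of the 9 genes and dropped Ccl25, Ccl4 and Ccl6. Of 114 values of single members under the alternatives, 110 kept their direction. The other 4 changed sign, namely Ccl25, from 0.03 to -0.005 with quantile normalization and to -0.009 without Aloxe3 replicate 9, and Ccl4, from 0.04 to -0.076 without β-gal replicate 2 and to -0.054 without Aloxe3 replicate 7. With a library left out, Ccl25 ranged from -0.009 to 0.063 and Ccl4 from -0.076 to 0.152. The number of all genes past the threshold, 50, was 7 with no filter on low values, which tests 24989 genes, 174 with voom on the derived reads, and 6 to 19 with a library left out (9, 10 and 16 without β-gal replicates 1, 2 and 3, and 6, 11 and 19 without Aloxe3 replicates 7, 8 and 9). Apart from the number of genes and libraries entering, the cause was not tested. The other 5 settings gave 34 to 47. No alternative moved the median log2 fold change of all tested genes by more than 0.1. No paired analysis was run because the labels state no pairing and the groups share no replicate number. Depth limits Ccl4 and Ccl6 most, and a change of 1.19-fold, as in Ccl3, lies within the interval of Ccl4.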
